A study of Mus musculus with 19 samples.

Results

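Mammary tumours that had lost the integrin gene Itgb3 were set against tumours that had lost Itgb1, which asks how the transcriptomes differ when the tumour epithelium lacks a different beta integrin subunit. The 8 arrays were chosen by the genotype in the labels, 4 labelled Itgb3 knockout and 4 labelled Itgb1 knockout, of 19 arrays in the series. The other arrays were 5 controls with intact integrin genes and 6 labelled double knockout. All the mice were MMTV-NIC: the mouse mammary tumour virus promoter drives an activated ErbB2 (Neu) together with Cre recombinase in mammary epithelial cells. The Itgb1 knockout mice carried floxed Itgb1 alleles (itgb1 fl/fl), the Itgb3 knockout mice carried floxed Itgb3 alleles (itgb3 fl/fl), and Cre deleted them in the same epithelium that made the oncogene. Fibroblasts, vessels, blood cells and fat in such a tumour keep both integrin genes. The tumours were taken at end burden and flash frozen, and total RNA was hybridised to a whole-transcript array. The sources used here give neither age, strain background nor the exons deleted.

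Integrins are receptors made of an alpha and a beta subunit that bind extracellular matrix outside the cell and couple to the actin cytoskeleton inside it. The beta 1 subunit pairs with many alpha subunits and gives most receptors for collagen, laminin and fibronectin. The beta 3 subunit pairs with alpha V, as a receptor for vitronectin, fibronectin and osteopontin, and with alpha IIb on platelets, as the fibrinogen receptor. In mammary epithelium beta 1 integrins hold cells to the basement membrane and take part in milk gene expression, whereas beta 3 is better known from endothelium, platelets, macrophages and osteoclasts.

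Values were log2 intensities normalized by the authors, and every difference below is the log2 level in Itgb3 knockout minus that in Itgb1 knockout tumours. The 8 arrays had medians of 4.32 to 4.48 over all probe sets, and pairs of arrays from different knockouts correlated as closely over 14231 genes (0.952 to 0.981 in 16 pairs) as pairs within Itgb1 knockout (0.952 to 0.978) or within Itgb3 knockout (0.964 to 0.977). Whether every tumour came from its own animal is not in the labels, so p-values here measure only how far these samples spread, which may be technical in part. The luminal epithelial markers Krt8, Krt18, Epcam and Cdh1 were high on all 8 arrays (9.81 to 10.24, 11.20 to 11.43, 11.21 to 11.60 and 9.53 to 10.05). The myoepithelial keratin Krt14, the fat hormone Adipoq, the B cell gene Cd79a and the neutrophil genes S100a8 and S100a9 lay under the detection filter of 4.38 on all 8. Skeletal muscle transcripts set 2 arrays apart: Acta1, the actin of skeletal muscle, read 9.41 in Itgb1 knockout replicate 1 and 9.17 in Itgb3 knockout replicate 3, against 5.32 to 6.10 in the other 6. List medians without both of these arrays are given beside those they move most. Itgb3 ran from 7.69 to 8.55 in the 6 arrays with the double knockout label, against 7.72 to 8.41 in control, so that label is not borne out for Itgb3. Those arrays enter the estimate of the spread, the detection filter and the choice of probe sets here, but none of the group means compared.

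The genes named in the genotypes separated the groups completely, each in the direction of its label. Itgb1 had a log2 level of 8.39, 8.52, 8.98 and 8.91 in the Itgb1 knockout tumours and of 9.95, 9.81, 10.15 and 10.26 in the Itgb3 knockout tumours. Every Itgb3 knockout value lay above every Itgb1 knockout value and inside or close to the control range of 9.83 to 10.32. The difference was 1.34 (SE 0.223, 95% interval 0.87 to 1.81, 2.53-fold). Itgb3 read 8.15, 8.98, 7.92 and 7.90 in the Itgb1 knockout tumours and 6.34, 7.31, 6.97 and 7.40 in the Itgb3 knockout tumours. Here too the groups did not overlap, and the difference was −1.23 (SE 0.267, 95% interval −1.79 to −0.67, 2.35-fold). With 4 tumours against 4 both genes gave an exact permutation p of 0.0286 (two-sided), the smallest that the 70 possible splits allow, or 0.0429 after Benjamini-Hochberg adjustment over 3 genes. Transcript of each targeted gene was still measured in its own knockout. In whole tumour tissue fewer cells of a type and less RNA per cell cannot be told apart, and stromal cells keep the genes. Set against control, Itgb1 was −1.46 in Itgb1 knockout and −0.12 in Itgb3 knockout, and Itgb3 was 0.12 and −1.12. These comparisons use the same knockout arrays as the direct one.

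Erbb2, the gene of the driving receptor, read 9.78, 9.90, 9.67 and 9.07 in Itgb1 knockout and 9.77, 9.999, 9.55 and 9.56 in Itgb3 knockout tumours. The groups overlapped, with a difference of 0.11 (95% interval −0.31 to 0.54, exact two-sided permutation p = 0.743). The sign rested on Itgb1 knockout replicate 4, without which the difference was −0.065. It is not known whether this probe set also reads the transgene.

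**Figure D1:**
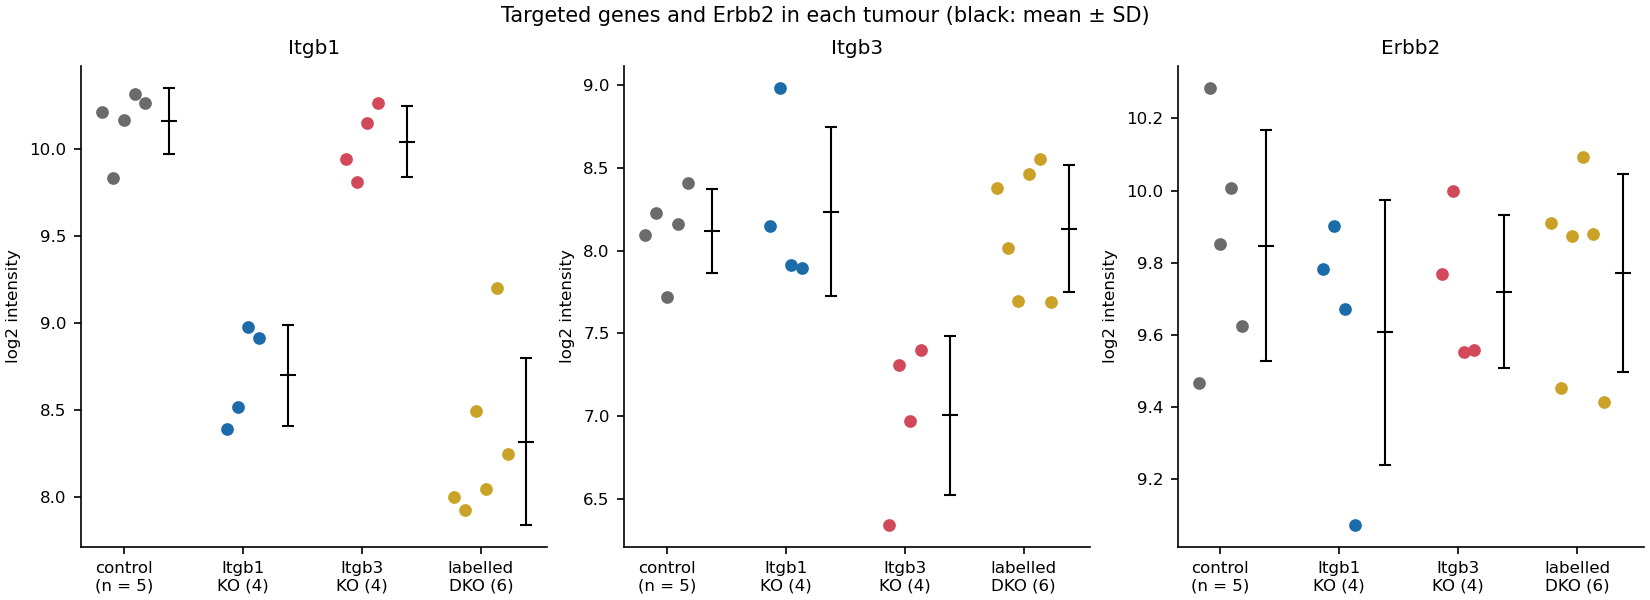
Log2 intensity of Itgb1, Itgb3 and Erbb2 in each of the 19 tumours by labelled genotype, with the group mean ± SD in black. Itgb1 lies between 8.39 and 8.98 in Itgb1 knockout and between 9.81 and 10.26 in Itgb3 knockout tumours, Itgb3 is between 6.34 and 7.40 in Itgb3 knockout tumours, and Erbb2 overlaps between the groups.

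Across all 14231 genes tested, none differed between the knockouts at an adjusted p of 0.05 in limma with Benjamini-Hochberg adjustment (0%). Itgb1 came closest (adjusted p = 0.131), followed by Itgb3 and others at 0.524. Without adjustment, 647 genes (4.55%) had a limma p under 0.05, where chance alone would give 711.55, with 245 higher (1.72%) and 402 lower (2.82%). The values of the 4 Itgb3 knockout tumours did not overlap those of the 4 Itgb1 knockout tumours in 551 genes (3.87%), 199 higher (1.4%) and 352 lower (2.47%). This surplus on the lower side was not stable to scaling. With each array centred on its median the split was 362 higher and 187 lower, and with quantile normalization 191 and 239. The median difference over all genes moved little with it, from −0.03 as deposited to 0.03 centred and −0.01 with quantile normalization, yet the share of genes above 0 went from 42.8% to 56.4% and 47.5%. Centring shifts the difference of every gene by one constant, and list medians with it. Counts of list members below 0 stand against 57.2% of all genes below 0, and the count below the median of all genes is given where it is another.

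A log2 difference beyond 1, or 2-fold, was found in 48 genes (0.337%), 14 higher (0.0984%) and 34 lower (0.239%). The median gene had an SE of 0.170, so that its 95% interval reached 0.355 to either side, or 1.28-fold, and for 95% of genes it reached no more than 0.815, or 1.76-fold. Without Itgb1 knockout replicate 1 and Itgb3 knockout replicate 3, which carried muscle transcripts, there were still 0 genes past the threshold. In that fit 716 genes had an unadjusted limma p under 0.05, and the adjusted p of Itgb1 was 0.696. Control replicate 2 and labelled double knockout replicate 2, with the highest muscle list means of the series (1.92 and 1.75 relative to control), stayed in it.

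**Figure D2:**
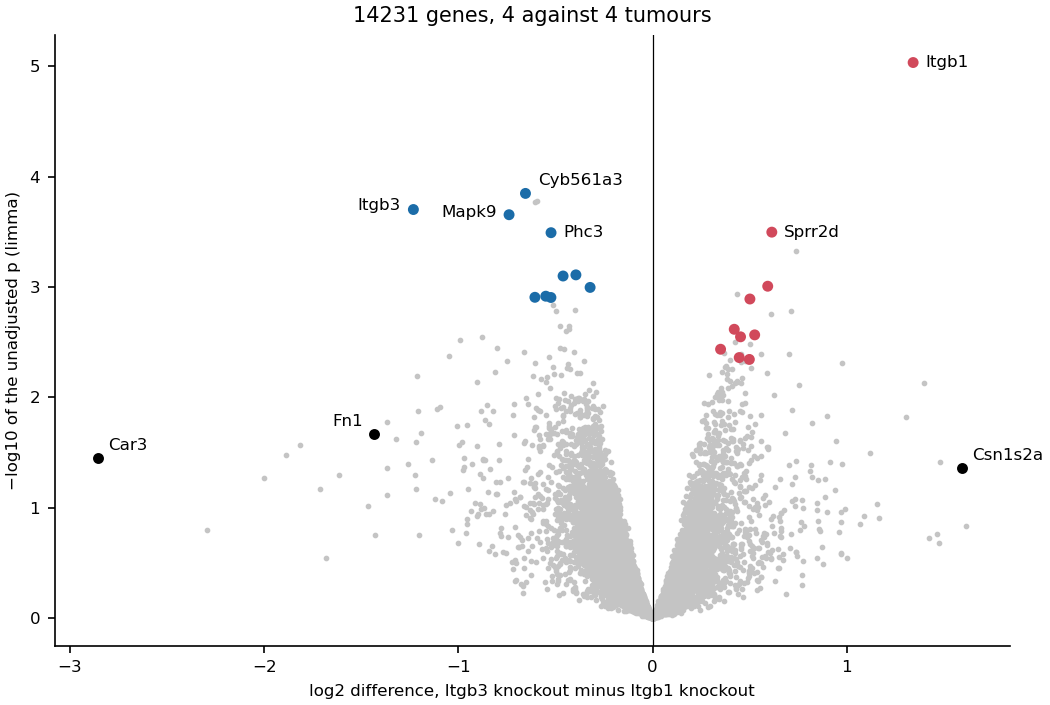
Each point is a gene, with its log2 difference (Itgb3 knockout minus Itgb1 knockout) on the horizontal axis and −log10 of the unadjusted limma p on the vertical axis, for 4 against 4 tumours. Itgb1 on the right (1.34) has the smallest p, Itgb3 (−1.23) is near the top on the left, and 0 of 14231 genes pass after adjustment.

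Leaving out predicted genes, clones and small RNAs, the 10 genes with the smallest p in each direction included Itgb1 and Itgb3 themselves. Ranking by p chose these genes, so their separation is a description: 19 of these 20 did not overlap between groups. All kept their direction in each alternative they were computed in, which adds no support. With groups apart, leaving out an array cannot turn the sign, and the other alternatives reuse the same arrays. The features left out that ranked among them (10 higher and 2 lower) are counted and not named. On the higher side stood Sprr2d, a small proline-rich protein of the cornified envelope. It read 4.23, 4.07, 4.19 and 3.58 in Itgb1 knockout, all under the detection filter, and 4.78, 4.74, 4.52 and 4.49 in Itgb3 knockout tumours. The difference of 0.61 (SE 0.140, adjusted p = 0.572) shrank to 0.25 with values under the filter raised to it. Kcnd2, a voltage-gated potassium channel, was likewise near the filter (0.59, or 0.15 after raising low values).

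Higher values above the filter were those of Foxf1, a forkhead transcription factor, and Il17c, a cytokine made by epithelial cells. Foxf1 read 4.99, 4.76, 4.83 and 5.09 in Itgb1 knockout and 5.29, 5.48, 5.39 and 5.52 in Itgb3 knockout tumours (difference 0.50, SE 0.133). Il17c read 4.66, 4.48, 4.63 and 4.50 against 5.27, 4.78, 4.87 and 5.04 (0.42, SE 0.120). In both genes the Itgb3 knockouts lay above all Itgb1 knockouts by small steps. The LIM homeobox gene Lhx2 (0.45), Dbndd1 (0.35), the retinol dehydrogenase gene Rdh1 (0.45, groups overlapping) and the serine protease gene Prss33 (0.50) followed at low intensities. Rplp0 encodes a protein of the ribosomal stalk and was the one strongly expressed gene among them apart from Itgb1. It read 9.09, 8.77, 9.16 and 9.06 in Itgb1 knockout and 9.33, 9.83, 9.38 and 9.64 in Itgb3 knockout tumours (0.53, SE 0.152). Ribosomal protein genes have many near-identical pseudogenes, so this probe set may read more than Rplp0. The adjusted p was 0.996 for each of these from Foxf1 on.

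On the lower side the values were further above the filter. Cyb561a3, a cytochrome b561 of lysosomes, read 7.51, 7.82, 7.95 and 7.78 in Itgb1 knockout and 7.20, 7.05, 7.35 and 6.83 in Itgb3 knockout tumours. Its difference was −0.65 (SE 0.138, adjusted p = 0.524), with the groups apart. Mapk9, the stress-activated kinase JNK2, read 7.79, 7.39, 8.11 and 7.77 against 6.81, 7.29, 7.15 and 6.86. All 4 Itgb3 knockouts were again below the lowest Itgb1 knockout, by −0.74 on average (SE 0.162, adjusted p = 0.524). Phc3, a subunit of Polycomb repressive complex 1, read 7.75, 7.68, 7.45 and 7.44 against 7.04, 7.07, 7.12 and 7.01 (−0.52, SE 0.119, adjusted p = 0.572). These 3 genes were above control in Itgb1 knockout (0.48, 0.50 and 0.28) and below it in Itgb3 knockout tumours (−0.18, −0.23 and −0.25), in comparisons that share the knockout arrays.

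Rel, an NF-kappaB subunit, read 6.99, 7.31, 7.29 and 7.09 in Itgb1 knockout and 6.79, 6.24, 6.60 and 6.62 in Itgb3 knockout tumours. Its difference of −0.61 (SE 0.159) came with a level in Itgb3 knockout close to control (−0.01) and a higher one in Itgb1 knockout (0.60). Sem1, a small subunit of the proteasome lid, differed by only −0.32 but with the tightest groups, 9.75 to 9.89 against 9.47 to 9.53. Cog5 of the Golgi tethering complex (−0.39), the transcriptional corepressor Atn1 (−0.46), the centrosomal gene Sdccag8 (−0.55) and Selenon, a selenoprotein of the endoplasmic reticulum (−0.52), completed this side. All of these from Rel on had an adjusted p of 0.996.

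**Figure D3:**
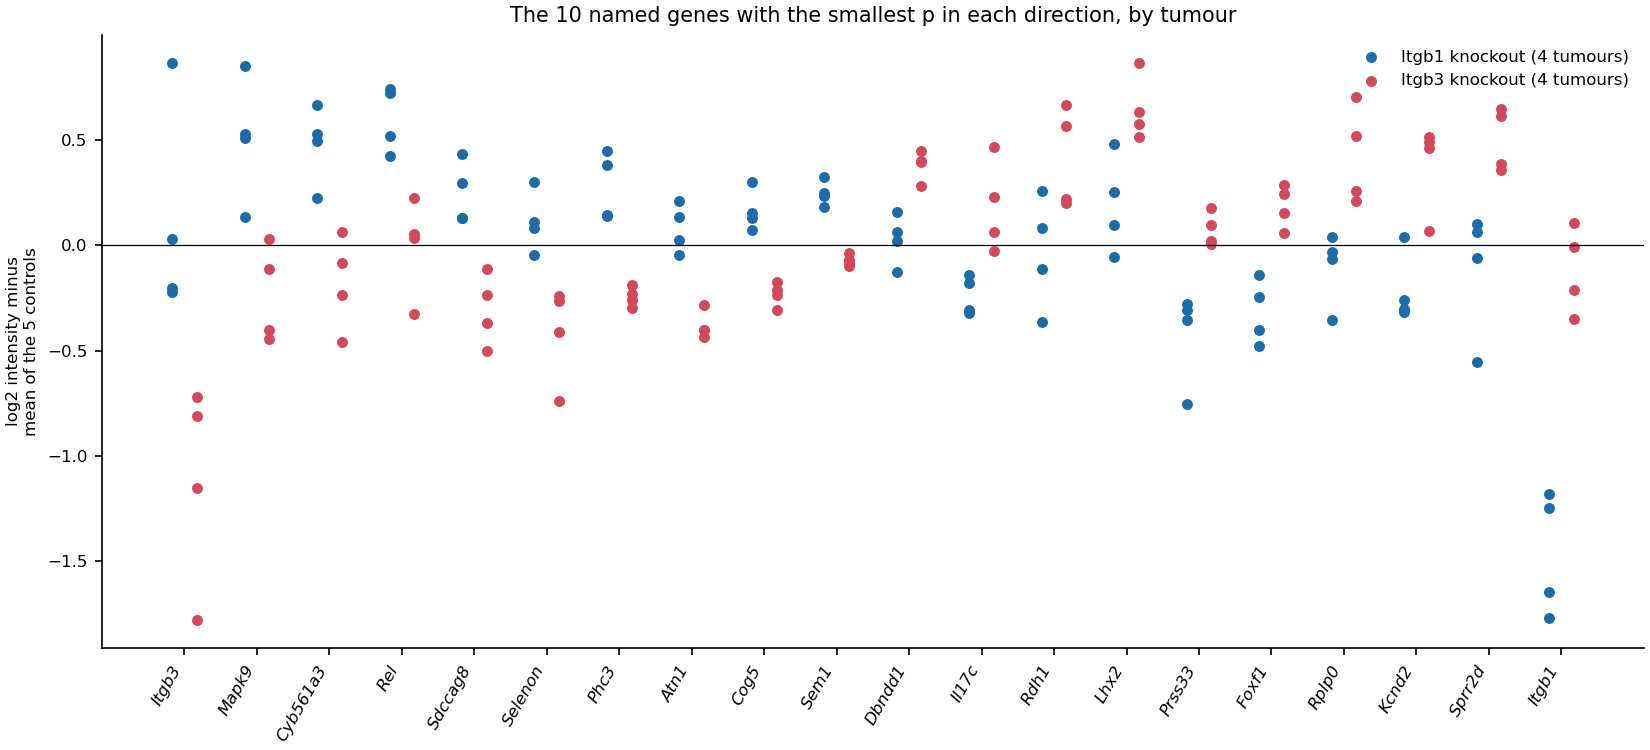
Log2 intensity minus the mean of the 5 controls in each of the 8 tumours, for the 10 genes with the smallest p in each direction apart from predicted genes, clones and small RNAs, Itgb1 knockout and Itgb3 knockout tumours in separate colours. Apart from Rdh1 the colours separate in every gene, as the ranking by p favours, while 0 of these genes pass the adjusted threshold.

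Among the beta integrin subunits and the alpha partners of beta 1 and beta 3, the targeted pair had the largest differences. Of the 8 beta subunit genes 2 were above 0, Itgb1 and the lymphocyte subunit Itgb7 (0.04). Itgb5, the other partner of alpha V in vitronectin binding, read 9.86, 9.97, 9.41 and 9.77 in Itgb1 knockout and 9.0005, 9.61, 9.60 and 9.19 in Itgb3 knockout tumours. The groups overlapped and the interval of the difference included 0 (−0.40, 95% interval −0.83 to 0.02). The leukocyte subunit Itgb2 (−0.22), the laminin-binding Itgb4 (−0.23), the epithelial Itgb6 (−0.19) and Itgb8 (−0.04) differed less. Itgav, the alpha V partner of beta 3, was at −0.32 (95% interval −0.72 to 0.07), and Itga2b, its platelet partner, at 0.08. Alpha subunits that pair with beta 1 had a median of −0.15, with 9 of 11 below 0 and 8 below the median of all genes. It ran from −0.28 without Itgb1 knockout replicate 4 to −0.03 with 5 above 0 without Itgb1 knockout replicate 1, and was −0.24 and −0.091 without Itgb3 knockout replicates 4 and 2 and −0.048 without both muscle-carrying arrays. Itga3, a laminin receptor subunit, was the one member of 11 whose groups did not overlap, where 2.47% of all genes were apart on the lower side. It read 7.54, 7.40, 7.44 and 7.33 against 7.16, 6.89, 7.26 and 7.25 (−0.29, 95% interval −0.80 to 0.22). The collagen receptor subunits Itga2 and Itga11 were at −0.36 and −0.41, and Itga6, whose product joins beta 1 or beta 4 as a laminin receptor, at 0.04. Apart from Itgb1 and Itgb3, the intervals printed here for integrin genes all included 0.

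Focal adhesions are the protein assemblies that tie integrin tails to actin. Of 31 such genes tested, 25 were below 0 and 24 below the median of all genes, with a median difference of −0.17, and 0 passed. The mean of the list, taken relative to the 5 controls, was −0.03, −0.01, −0.03 and 0.00 in the Itgb1 knockout tumours and −0.23, −0.13, −0.10 and −0.14 in the Itgb3 knockout tumours. The groups did not overlap, although both lay within or just outside the control range of −0.19 to 0.20. This was the only list of the 38 whose means separated the groups. Complete separation in either direction makes up a share of 0.0286 of the 70 possible splits, so the separation is a description. Centring the arrays brought the median to −0.10 and quantile normalization to −0.12, and leaving out single arrays gave −0.18 to −0.11. In 3 members the groups did not overlap, where 2.47% of all genes were apart in this direction: the guanine nucleotide exchange factor Dock1 (8.75 to 8.88 against 8.34 to 8.73, −0.31), the actin-binding parvin Parva (8.87 to 9.13 against 8.50 to 8.83, −0.29) and the adaptor Crkl (7.57 to 7.71 against 7.22 to 7.53, −0.19). Rsu1, a partner of the parvin complex, was at −0.26 with overlap.

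The largest list differences were in connective tissue genes, where the Itgb3 knockout tumours were also the more variable. Of 29 genes of the interstitial matrix, which holds fibrillar collagens and their partners, 27 were below 0, with a median of −0.60. Of 18 fibroblast marker genes 15 were below 0, with a median of −0.55, and 7 of them are also in the matrix list. Of the 40 genes in either list, 9 were under −1 (22.5%, against 0.239% of all genes) and 0 over 1. Yet the groups were apart on the lower side in only 1 of the 29 matrix genes and 0 of the 18 fibroblast markers, against 2.47% of all genes. No gene of either list passed. The matrix list mean relative to control was 0.52, 0.15, 0.06 and 0.29 in Itgb1 knockout tumours and −0.21, −1.40, 0.40 and −0.35 in Itgb3 knockout tumours. Itgb3 knockout replicate 2 was by far the lowest, and replicate 3, which carried muscle transcripts, lay among the Itgb1 knockouts. Of the 29 matrix genes 24, and of the fibroblast markers 13 of 18, had their lowest value of the 8 tumours in Itgb3 knockout replicate 2. Without that array the median was −0.32 for the matrix list and −0.32 for the fibroblast list, while without replicate 3 the matrix median was −0.80. Leaving out both arrays with muscle transcripts gave −0.81 and −0.61. How far the amount of stroma in each tumour piece enters these values was not tested.

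Fn1, which encodes fibronectin, a ligand of both integrins, shows the pattern. It read 10.03, 9.74, 8.83 and 9.47 in Itgb1 knockout and 9.01, 5.93, 9.41 and 7.99 in Itgb3 knockout tumours, a difference of −1.44 (SE 0.573, 95% interval −2.64 to −0.24, adjusted p = 0.996). The 5.93 of Itgb3 knockout replicate 2 was far below all others, and the other values overlapped. Col1a1, the main collagen of connective tissue, read 8.48, 8.44, 8.31 and 8.18 against 7.92, 5.96, 8.57 and 7.62 (−0.84, 95% interval −1.65 to −0.02). Postn, the matricellular ligand periostin, read 9.21, 8.91, 8.91 and 9.16 against 8.72, 6.04, 9.49 and 8.32 (−0.90, 95% interval −2.07 to 0.26). In Col1a1 and Postn replicate 3 of the Itgb3 knockouts was the highest of the 8 tumours, while in Fn1 it lay below 3 of the 4 Itgb1 knockouts. The elastin crosslinking enzyme Loxl1 (−1.19), the proteoglycans Bgn (−1.01) and Lum (−1.26) and the fibril-associated collagen Col14a1 (−1.11) were also lowest in Itgb3 knockout replicate 2. Dcn, the fibroblast proteoglycan decorin, ranged from 3.46 in that tumour to 9.05. Ligands of beta 3 integrin as a list (11 tested) had a median of −0.10, with 5 above 0, which was −0.025 without Itgb3 knockout replicate 1 and turned to 0.04 without Itgb1 knockout replicate 1 or without both muscle-carrying arrays.

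Enzymes and barriers of the matrix were also mostly below 0. Of 19 matrix proteases and inhibitors 14 were below 0 (median −0.25, or −0.12 without Itgb1 knockout replicate 1, −0.15 without Itgb3 knockout replicate 2 and −0.16 without both muscle-carrying arrays). The membrane-bound protease Mmp14 read 8.62, 8.18, 7.77 and 8.08 against 7.72, 6.93, 7.83 and 7.59 (−0.65), and its substrate Mmp2 was at −0.80. Stromelysin Mmp3 (−0.79) and the aggrecanase Adamts5 (−0.86) were under the filter in 3 of 4 Itgb3 knockout tumours. Among 20 genes of laminins and basement membrane 17 were below 0 (median −0.15). This median was −0.23 without Itgb3 knockout replicate 1 or 4, −0.11 without Itgb1 knockout replicate 1 and −0.090 without both muscle-carrying arrays, with 7 then above 0. Nid1, a linker of basement membrane, was at −0.61 (95% interval −1.11 to −0.11) and the laminin chain Lama2 at −0.46 with groups apart (5.26 to 5.68 against 4.63 to 5.15). Neither passed (adjusted p = 0.996). Of the 20 genes 1 had groups apart on the lower side (Lama2) and 1 on the higher side. Over all genes these shares were 2.47% and 1.4%.

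Of 12 adipocyte genes tested, 11 were below 0 and 10 below the median of all genes (median −0.30). The list means were 0.26, 0.10, 0.59 and 0.50 in Itgb1 knockout and −0.07, −0.56, 0.43 and −0.50 in Itgb3 knockout tumours. They ordered the Itgb3 knockout tumours as the matrix list did, but not the Itgb1 knockout tumours. There replicate 3 was highest for adipocyte genes (0.59) and lowest for matrix (0.06). Car3, a carbonic anhydrase abundant in fat and muscle, had the largest named difference and the least certain. It read 9.56, 7.39, 9.18 and 9.44 against 6.56, 3.68, 9.71 and 4.21 (−2.85, 95% interval −5.49 to −0.22), with Itgb3 knockout replicate 3 above all the others. Fabp4, the fatty acid carrier of fat cells, was at −0.98. Of 19 endothelial genes 15 were below 0 and 13 below the median of all genes (median −0.17, or −0.10 without Itgb1 knockout replicate 1 and −0.11 without both muscle-carrying arrays). Among these the lymphatic receptor Lyve1 was at −0.97, and the transcription factor Erg had its groups apart (5.26 to 5.55 against 4.96 to 5.10, −0.32).

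**Figure D4:**
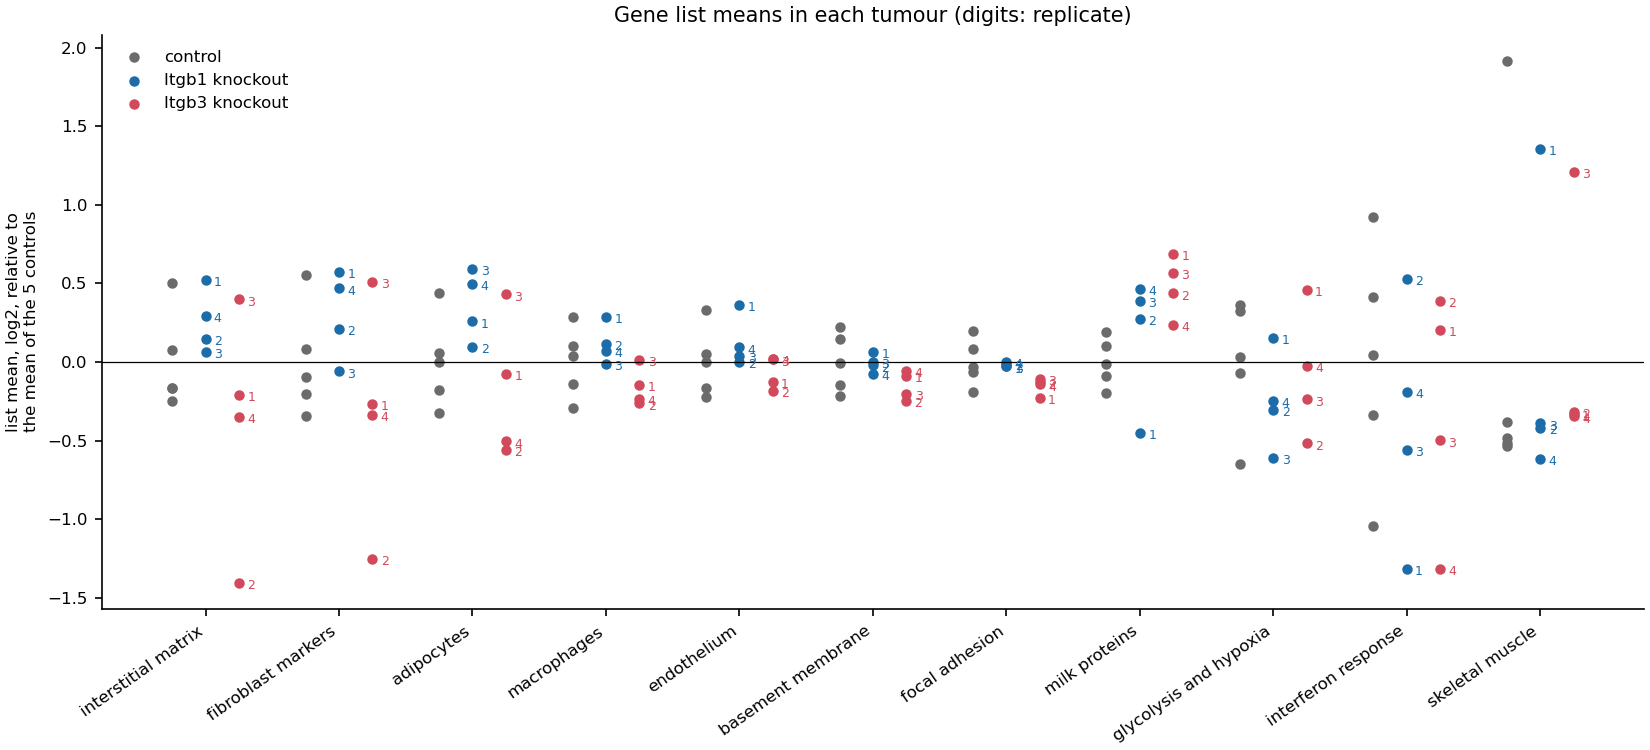
Mean log2 level of selected gene lists in each of the 8 knockout tumours and the 5 controls, relative to the mean of the 5 controls. Digits give the replicate of the knockout tumours, and controls carry none. In the interstitial matrix list Itgb3 knockout replicate 2 lies at −1.40 and replicate 3 at 0.40, within the Itgb1 knockout range of 0.06 to 0.52, and in the skeletal muscle list Itgb1 knockout replicate 1 (1.35) and Itgb3 knockout replicate 3 (1.21) stand apart.

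Macrophage markers were below 0 in 19 of 22 genes and below the median of all genes in 18 (median −0.27). Unlike the matrix list, this median varied little with any single array (−0.36 to −0.21) and was −0.26 without both muscle-carrying arrays, −0.21 centred and −0.23 with quantile normalization. None passed, and 4 of the 22 did not overlap between groups, against 2.47% of all genes on this side. Csf1r, the receptor for the macrophage growth factor, read 7.82, 8.11, 8.03 and 7.86 in Itgb1 knockout and 7.08, 7.33, 7.75 and 7.17 in Itgb3 knockout tumours. All 4 Itgb3 knockouts were lower, by −0.62 on average (95% interval −1.17 to −0.08). Adgre1, a surface receptor that marks mouse macrophages, read 6.93, 6.70, 6.78 and 6.49 against 6.21, 6.17, 6.45 and 5.96 (−0.53, 95% interval −0.96 to −0.09). Aif1, a calcium-binding protein of macrophages, differed by −0.42 with groups apart, and so did the integrin gene Itgam (−0.40), which is named after its values were seen. Not all markers went this way: Cd14 (0.18), Marco (0.03) and Cd68 (0.02) were the 3 members above 0, and Fcgr3 (−0.007) and Lyz2 (−0.13) differed little. Set beside control, the list median was 0.11 in Itgb1 knockout and −0.16 in Itgb3 knockout tumours. The list means were 0.29, 0.11, −0.01 and 0.07 in Itgb1 knockout tumours. They were −0.15, −0.26, 0.01 and −0.23 in Itgb3 knockout tumours, which overlap only at Itgb3 knockout replicate 3.

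Other immune genes were centred near 0. The medians were 0.00 for 10 T and NK cell genes, −0.02 for 13 genes of dendritic cells and MHC class II, 0.08 for 6 neutrophil genes, 0.05 for 9 platelet genes and 0.09 for 4 genes of B and plasma cells. Leaving out single knockout arrays, or both muscle-carrying ones, moved these medians between −0.16 and 0.14, and each took either sign. The dendritic cell integrin gene Itgax was an exception within its list (5.75, 6.41, 5.68 and 5.77 against 5.35, 5.63, 5.01 and 5.18, −0.61), with groups apart. Interferon-response genes spread widely inside each group: the list mean was −1.31, 0.53, −0.56 and −0.19 in Itgb1 knockout and 0.20, 0.39, −0.50 and −1.31 in Itgb3 knockout tumours. Each knockout thus held 1 tumour with a very low interferon list. This was not particular to them: controls ran from −1.04 to 0.92 and labelled double knockouts from −2.04 to −0.53. The median difference of 0.07 ran from −0.22 without Itgb1 knockout replicate 1 to 0.39 without Itgb3 knockout replicate 4. It was −0.14 without both muscle-carrying arrays. MHC class I and antigen processing genes had the same low tumours among the knockouts (list means −0.61 and −0.74) and a median of 0.08. That median turned to −0.047 without Itgb3 knockout replicate 2, −0.034 without Itgb1 knockout replicate 1 and −0.019 without both muscle-carrying arrays, and was 0.22 and 0.36 without Itgb1 knockout replicate 2 and Itgb3 knockout replicate 4.

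Most epithelial identity genes overlapped between groups. Groups were apart in 0 of 17 luminal genes and in 1 of 13 basal and myoepithelial genes, on the higher side, where 1.4% of all genes were apart. The 17 luminal genes had a median of −0.07, with 7 above 0, and the 13 basal and myoepithelial genes one of −0.13, with 4 above 0. The luminal median ran from −0.13 without Itgb1 knockout replicate 1 to −0.028 without Itgb1 knockout replicate 4, and the basal one was −0.040 without both muscle-carrying arrays. Milk proteins and genes of secretory differentiation were above 0 in 15 of 19 genes (median 0.11), but without Itgb1 knockout replicate 1 only 9 were above 0 and the median was −0.0018. It turned to −0.057 without both muscle-carrying arrays and was 0.17 without Itgb1 knockout replicate 2. Itgb1 knockout replicate 1 had the lowest value of the 8 in 11 of these genes. The 3 caseins below accounted for the large differences. Csn1s2a read 4.63, 6.89, 7.21 and 6.68 in Itgb1 knockout and 9.28, 7.37, 7.58 and 7.56 in Itgb3 knockout tumours (1.59, 95% interval 0.05 to 3.14, groups apart by a small step). Csn1s1 read 3.60, 5.12, 5.64 and 5.89 against 7.56, 4.87, 7.59 and 6.16 (1.48), and Csn2 read 5.09, 5.87, 8.15 and 8.40 against 10.05, 6.13, 8.48 and 8.70 (1.47, 95% interval −0.71 to 3.64). Both knockouts had higher casein means than control, by 0.93 and 2.53 for Csn1s2a in Itgb1 and Itgb3 knockout tumours. Elf5, the transcription factor of the secretory lineage, was at 0.32 with an interval that included 0.

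Genes of glycolysis and hypoxia were above 0 in 22 of 25 and above the median of all genes in 23, with a median of 0.15. The list means were 0.15, −0.30, −0.61 and −0.25 in Itgb1 knockout and 0.46, −0.52, −0.24 and −0.03 in Itgb3 knockout tumours. Itgb3 knockout replicate 1 had the highest value of the 8 in 18 of these 25 genes, and without it the median was −0.01 with 11 above 0. Without Itgb3 knockout replicate 2 it was 0.32, without Itgb1 knockout replicates 1, 2 and 3 in turn 0.25, 0.069 and 0.043, without Itgb3 knockout replicate 4 0.097, and without both muscle-carrying arrays 0.31. Pfkl, the liver type phosphofructokinase, was the one member of 25 with groups apart, where 1.4% of all genes were apart on the higher side (9.68, 9.63, 9.97 and 9.97 against 10.29, 10.01, 10.21 and 10.14, difference 0.35, 95% interval 0.08 to 0.62). Compared with control it was −0.43 in Itgb1 knockout and −0.08 in Itgb3 knockout tumours. The hypoxia-induced genes Adm (0.74) and Bnip3 (0.57) and the glycolytic enzyme gene Pgk1 (0.22) overlapped between groups.

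Most growth and signalling lists had medians near that of all genes. The median was −0.04 for 13 genes of ErbB receptors and ligands, −0.06 for 19 of the insulin and IGF pathway, −0.05 for 26 of the TGF-beta response and −0.04 for 27 of the Wnt pathway. It was −0.06 for 26 cell cycle genes and −0.02 for 17 of p53 and cell cycle arrest. Leaving out single knockout arrays, or both muscle-carrying ones, moved these 6 medians between −0.17 and 0.06, with that of the insulin and IGF pathway at −0.13 without Itgb1 knockout replicate 4. The 22 YAP and TAZ targets had a median of −0.13, with 16 below the median of all genes, which ran from −0.22 without Itgb1 knockout replicate 2 to −0.073 without Itgb1 knockout replicate 3. Igf1, the growth factor made by stroma, was at −0.55 (95% interval −0.97 to −0.12), and the EGFR ligand gene Tgfa at −0.43. The cell cycle list had its lowest values in Itgb3 knockout replicate 2 for 21 of 26 genes, and without it the median was 0.06, against −0.17 without Itgb3 knockout replicate 3 or without both muscle-carrying arrays. Cholesterol synthesis genes were below 0 in 14 of 17 (median −0.14), which turned to 0.03 without Itgb1 knockout replicate 4 and was −0.29 without Itgb1 knockout replicate 2. Fatty acid synthesis (0.07, 20 genes) and the ATF4 and amino acid response (0.02, 18 genes) lay slightly above 0, and went to −0.018 without Itgb3 knockout replicate 2 and to −0.021 without Itgb3 knockout replicate 1. Over all 38 lists 0 held a gene that passed, and their medians lay below that of all genes in 24 lists and above it in 14.

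**Figure D5:**
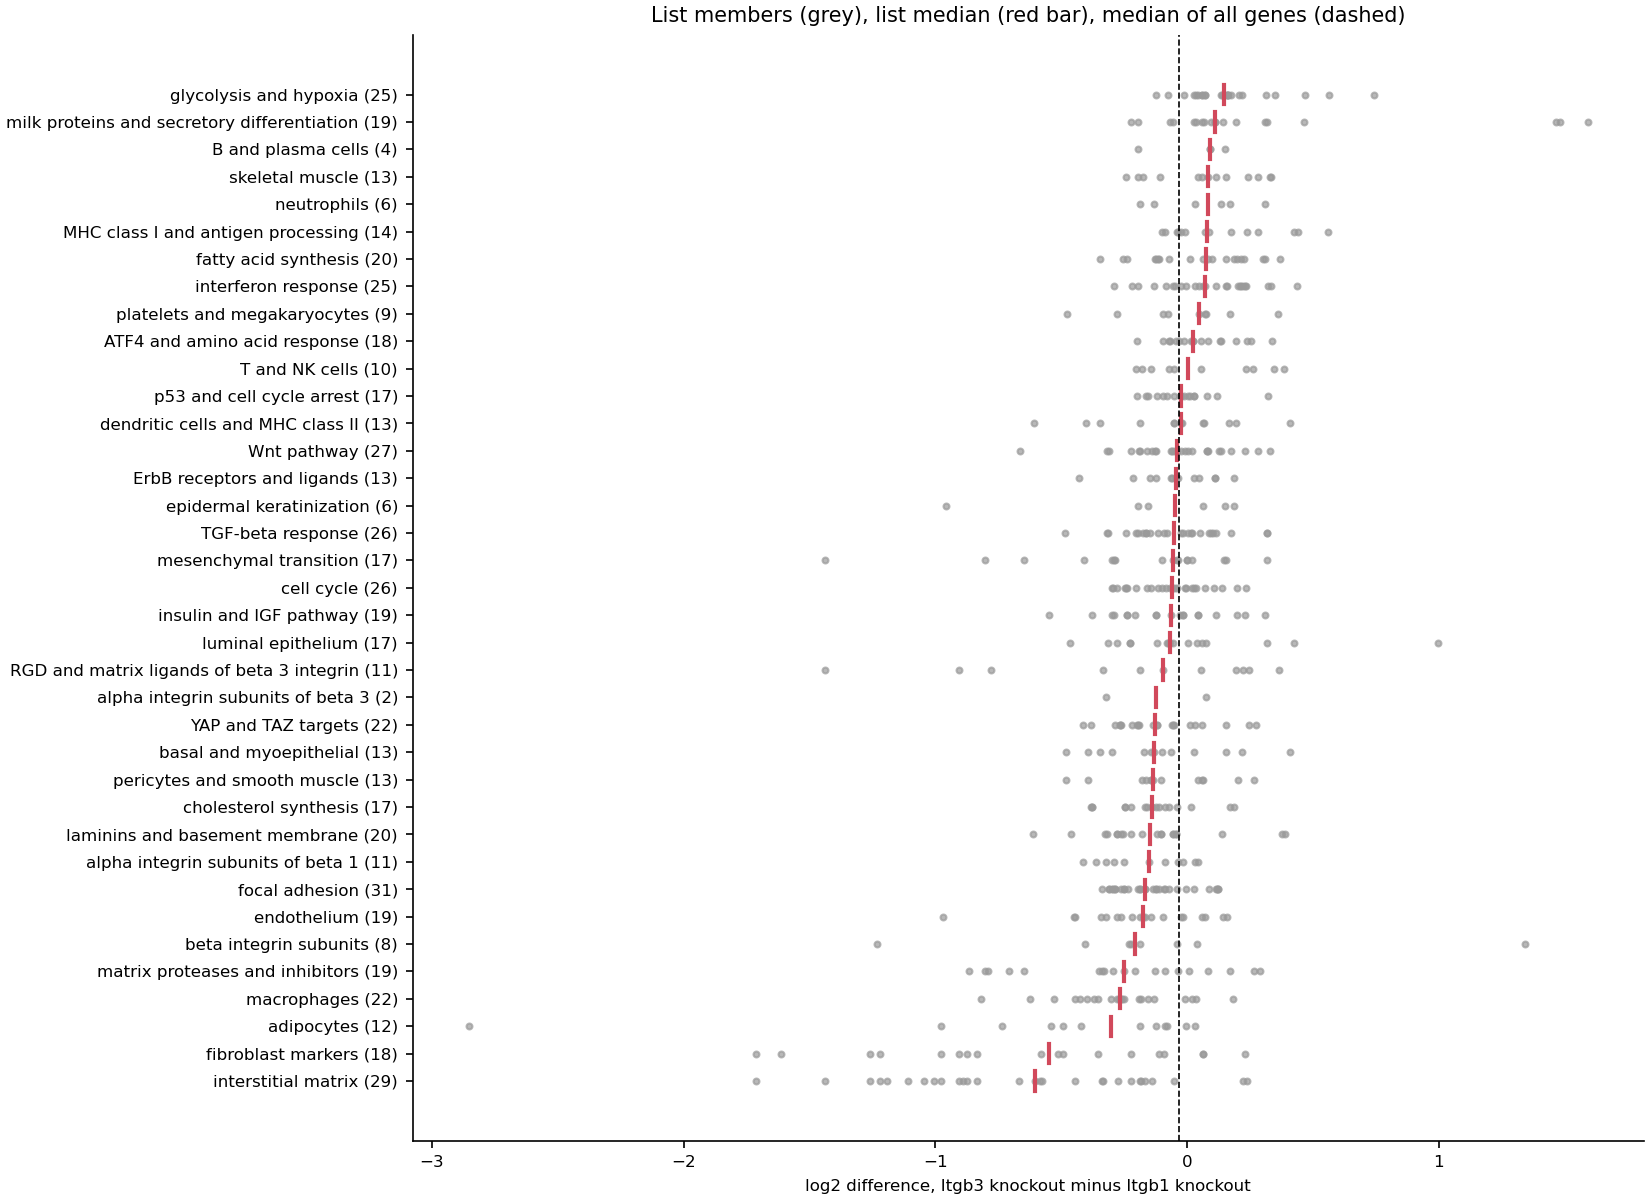
Log2 difference (Itgb3 knockout minus Itgb1 knockout) of each measured list member in grey, with the list median as a red bar, the number of members in brackets and the median of all genes as a dashed line. Interstitial matrix (−0.60) and fibroblast markers (−0.55) have the lowest medians, and most other lists centre close to the dashed line.

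Because a floxed allele can carry neighbouring chromosome from its strain of origin, the 50 annotated genes on each side of both loci were listed by their order in the gene table. Around Itgb1 on chromosome 8, which lies near the chromosome end, 12 of 59 neighbours were tested. None passed, 0 had groups apart and the median was −0.03. Around Itgb3 on chromosome 11, 43 of 100 neighbours were tested. None passed, the median was −0.04, and groups were apart in 3 (6.98%, against 3.87% of all genes). These were Kansl1 (−0.17), 1700052K11Rik (−0.61) and Tcam1 (0.33), named after their values were seen. 1700052K11Rik read 6.50, 6.11, 6.32 and 6.25 in Itgb1 knockout and 5.47, 5.68, 5.80 and 5.81 in Itgb3 knockout tumours (adjusted p = 0.524).

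Each knockout was also set beside control in the same fit. For Itgb3 knockout minus control 0 genes passed (0%, with 874 or 6.14% at an unadjusted p under 0.05), and for Itgb1 knockout minus control only Itgb1 did (0.00703%, with 691 or 4.86%). The list medians of the interstitial matrix were −0.42 in Itgb3 knockout and 0.28 in Itgb1 knockout tumours, and those of glycolysis and hypoxia −0.11 and −0.25. These medians had opposite signs for the matrix list and the same sign for glycolysis, in comparisons that share the control arrays. By tumour, most list means lay within the control ranges of −0.25 to 0.50 (matrix) and −0.65 to 0.36 (glycolysis). Outside them were Itgb1 knockout replicate 1 (0.52) and Itgb3 knockout replicates 2 (−1.40) and 4 (−0.35) for matrix. For glycolysis it was Itgb3 knockout replicate 1 (0.46).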

How the data were processed

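The 4 Itgb3 knockout and 4 Itgb1 knockout arrays were chosen by genotype label; these members and all gene lists were chosen with earlier results of these data known. The authors normalized the deposited log2 values in Affymetrix Expression Console, per the submitters' processing notes. Its version and the background correction and summarization used are not given in the sources here. Of 41345 probe sets, 23521 had 1 gene symbol, 1814 several and 16010 none. Those with 1 symbol and a value of at least 4.38 (the table's median) on 4 or more arrays were kept, and for the 563 genes with several the set with the highest mean, which left 14231 genes. limma 3.58.1 (lmFit, eBayes; R 4.3.3) fitted 4 group means to all 19 arrays (18.7 degrees of freedom after moderation), with two-sided tests and Benjamini-Hochberg adjustment over all genes. Exact permutation tests used scipy 1.17.1. The 38 lists got no test, only counts and medians. Named were Itgb1, Itgb3, Erbb2, the 10 smallest p in each direction (0 passed) and up to 4 members with the smallest p per list; the other integrin subunits and cell type markers are given as families. Array number, not depth, limits precision. The fit was tested on simulated data. Alternatives covered scaling, filters, probe sets, weights, variance prior and single arrays. Leaving out the Itgb1 knockout and Itgb3 knockout arrays with muscle transcripts was chosen after seeing the data.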

Additional observations from a re-analysis of the deposited data

Results flagged for a closer look

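In groups of 4 tumours, 112 sets of values (named genes and list means) were searched for a tumour far from the other 3. Chance gives about 1 in 20, or 5.6 sets, and 8 were found. Skeletal muscle transcripts stood out in Itgb1 knockout replicate 1 (list mean 1.35 relative to control, the others −0.62 to −0.39) and in Itgb3 knockout replicate 3 (1.21, the others −0.35 to −0.32). The basal and myoepithelial list was low in Itgb3 knockout replicate 2 (−0.43, the others −0.07 to −0.02), the tumour that was also lowest in matrix and fibroblast genes. The beta integrin list was low in Itgb3 knockout replicate 1 (−0.43, the others −0.11 to −0.09), and Itgb3 itself was lowest there (6.34). The ATF4 and amino acid response list was high in Itgb1 knockout replicate 4 (0.10, the others −0.18 to −0.17). Kcnd2 was high in Itgb1 knockout replicate 4 (4.13, the others 3.77 to 3.83) and low in Itgb3 knockout replicate 1 (4.16, the others 4.55 to 4.60), and Prss33 was low in Itgb1 knockout replicate 3 (4.28, the others 4.68 to 4.76). Kcnd2 and Prss33 lie near the detection filter of 4.38.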

How the results depend on the processing

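The count of 0 genes between the knockouts held in every alternative except 1. Without the array labelled double knockout replicate 5, which enters the limma fit only through the spread, Itgb1 passed (count 1, adjusted p = 0.00223). Itgb1 read 9.20 on that array, above every Itgb1 knockout tumour (8.39 to 8.98), and 7.93 to 8.50 on the other arrays with the double knockout label. Its adjusted p was 0.0541 with array weights and 0.0546 with centred arrays, and 0.886 without Itgb3 knockout replicate 4. Itgb1 knockout minus control went from 1 gene to 0 with array weights, and leaving out single arrays gave 0 to 1 (0 without Itgb1 knockout replicate 1, 2 or 4, or any control but replicate 2). Leaving out single arrays of the knockouts gave an Itgb1 difference of 1.24 to 1.44 and an Itgb3 difference of −1.36 to −0.98, both with an exact permutation p of 0.0857 after adjustment, as 3 tumours against 4 cannot reach 0.05. The Erbb2 difference ran from −0.065 (without Itgb1 knockout replicate 4, where it turned) to 0.21. Genes with groups apart numbered 551, and 802 to 1437 with 1 array fewer, where fewer tumours overlap less, 549 centred and 430 with quantile normalization. Of named gene values in alternatives, 605 kept direction and call, 1 gained the call (Itgb1) and 1 turned (Erbb2). Most genes named by smallest p had groups apart, so leaving out single arrays could not turn them. List medians moved by more than the spread between tumours in 17 of 429 cases. That count says little about stability where list means spread widely. The interferon list had an SD of its mean of 0.77, and its median ran from −0.22 to 0.39. No paired analysis was possible because the labels do not match tumours across genotypes. They give no replicate numbers either, so those used here were assigned by the order of the arrays in the series. No test was run on gene lists. Signal near the detection filter limits Sprr2d, Kcnd2, Tcam1, Mmp3 and Adamts5.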
